A study of Homo sapiens with 31 samples.

Results

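The genes of the translation initiation factors were followed across 31 samples of NALM-6, an established B-cell precursor acute lymphoblastic leukaemia line. Members were the protein-coding genes whose symbol begins with EIF1 to EIF6, leaving out the EIF2AK kinases and the EIF4EBP binding proteins, which gave 48 of the 30667 identifiers in the table. The cells had been transduced with a lentiviral vector that carries a short hairpin RNA (shRNA) in a miR30 cassette behind dsRED. EF1a/sh-CTRL (X144) and SFFV/sh-CTRL (X146) carried a control shRNA against eGFP, whereas EF1a/sh-XIAP (X153) and SFFV/sh-XIAP (X158) carried an shRNA against XIAP, an inhibitor of apoptosis. The EF1a promoter was used for moderate and the SFFV promoter for strong knockdown. Samples were taken 4, 10 and 13 days after transduction, with 3, 3 and 3 samples of EF1a/sh-CTRL, 3, 2 and 2 of SFFV/sh-CTRL, 2, 2 and 3 of EF1a/sh-XIAP and 2, 3 and 3 of SFFV/sh-XIAP. The study marked control and knockdown populations with mTagBFP and eGFP in its competitive assays. Whether the sequenced cells carried these markers is not stated, and if so, marker and shRNA cannot be told apart. The sample labels describe culture in vitro, while the design text of the series speaks of cells recovered from murine bone marrow, and nothing states whether replicates came from separate transductions. P-values therefore measure the spread between these samples, which may be technical.

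Initiation brings the small ribosomal subunit, the initiator tRNA and the mRNA together. eIF1, eIF1A and eIF5 set the fidelity of scanning and of start codon choice, eIF5B joins the subunits, eIF2 carries the initiator tRNA and eIF2B recharges eIF2 with GTP. eIF3 is the large scaffold on the small subunit, and the eIF4 group binds the cap and unwinds the leader. eIF5A acts mainly in elongation and termination, and eIF6 keeps free large subunits apart from small ones. Several of these mRNAs start with a run of pyrimidines, the 5′ terminal oligopyrimidine (TOP) tract of ribosomal protein mRNAs, which couples their translation to mTOR.

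The TOP tract is a link between some initiation factors and the ribosomal proteins that can be read from the sequence at the start site. The windows below hold 30 bases, 15 before and 15 from the start annotated by RefSeq on GRCh38.p14, written 5′ to 3′ on the strand of the gene. They were chosen to show 3 members known for a TOP tract (EIF4B, EIF2S3 and EIF3F) beside the members whose levels ran most closely with the ribosomal proteins (EIF1AX, EIF4G2 and EIF2A) and EIF3J, the member that stood apart most with strong knockdown. Capitals mark a tract, defined as a C followed by at least 7 further C or T that begins within 10 bases of the annotated start. They lie at chr12:53006441-53006470 (plus strand, EIF4B), chrX:24054941-24054970 (plus, EIF2S3), chr11:7987322-7987351 (plus, EIF3F), chrX:20141824-20141853 (minus, EIF1AX), chr11:10807982-10808011 (minus, EIF4G2), chr3:150546772-150546801 (plus, EIF2A) and chr15:44537132-44537161 (plus, EIF3J).
EIF4B: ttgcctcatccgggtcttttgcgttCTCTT
EIF2S3: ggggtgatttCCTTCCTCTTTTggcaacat
EIF3F: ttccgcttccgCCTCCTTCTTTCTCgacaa
EIF1AX: gcaaagagtcgcggcgccatttgctgccgc
EIF4G2: gaggttgtcggaagcacttccctaacttgc
EIF2A: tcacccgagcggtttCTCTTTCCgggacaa
EIF3J: cacctccgccgtgctaactcctcgctagct
The tract of EIF4B begins 10 bases after the start and runs past the window to a length of 15 bases. Such a tract was found in 10 of the 41 members with a RefSeq promoter (24.4%), in 45 of 62 ribosomal protein genes (72.6%) and in 2480 of 27305 promoters in all (9.08%). Of the 3 windows of members whose level ran most closely with the ribosomal proteins, that of EIF2A holds a tract and those of EIF1AX and EIF4G2 do not. A match describes the letters only.

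Each value is a count of unique molecular identifiers (UMIs), in which each captured mRNA molecule counts once near its 3′ end, so that levels need no correction for length. Samples held 312852 to 1153668 UMIs, with a median of 603822, and 2515 to 10423 of these lay on the initiation factor genes. Levels are given as CPM, the UMIs of a gene scaled to the same total in every sample. The precursor B markers CD79A, CD79B, MME, PAX5, EBF1, VPREB1, IGLL1, DNTT, RAG1, RAG2 and CD22 all had UMIs and summed to 4373 to 5077 CPM, while the summed T cell, myeloid, erythroid and stromal markers in the table reached at most 22.8, 25.6, 5.29 and 11.5 CPM. XIAP itself was counted with 2 to 14 UMIs a sample, which checks the knockdown only coarsely. Its level at days 10 and 13 was 8.86 ± 3.06 CPM (SD, n = 6) in SFFV/sh-XIAP and 10.2 ± 4.72 CPM (n = 4) in SFFV/sh-CTRL, and 9.62 ± 1.45 CPM (n = 5) in EF1a/sh-XIAP and 10.8 ± 4.67 CPM (n = 6) in EF1a/sh-CTRL. Both differences are smaller than the spread. The study measured its knockdown in NALM-6 as XIAP protein by Western blot, which these mRNA counts do not measure.

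In bulk samples, less mRNA in each cell and fewer cells with the mRNA cannot be told apart. The initiation factor genes took a narrow share of every sample, 0.798% to 0.907% of all UMIs with a median of 0.846%. The 14 eIF3 genes held 33.5% of the 176039 UMIs on members, the 12 genes for cap binding and the helicase 32.4%, the 7 for scanning and start selection 12.8%, the 6 of eIF2 and the initiator tRNA 9.77%, the 4 of eIF5A and eIF6 8.18% and the 5 subunits of the exchange factor eIF2B 3.33%. Members differed widely in level: 16 of 48 had at least 5000 UMIs over all samples and 14 had fewer than 1000. Counting error is smallest for the first and largest for the second of these groups.

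By UMIs on the gene itself, EIF4G2, which codes for the eIF4G relative DAP5 that supports cap-independent initiation, was the most abundant member. It ranged from 588 to 770 CPM with a mean of 672 ± 42.7 CPM (SD, n = 31). Next came EIF4A2, an RNA helicase of the cap complex, at 515 ± 25.5 CPM, and EIF5A at 447 ± 37.9 CPM. EIF4B at 421 ± 31.3 CPM and EIF4H at 413 ± 30.9 CPM, both cofactors of the helicase, overlapped with EIF5A in their ranges. The neighbours in this order from EIF5A to EIF4H do not differ beyond their spread.

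The leading genes of the other roles, again by UMIs on the gene itself, were lower. EIF1 was at 340 ± 25.4 CPM and EIF3E, a subunit of eIF3, at 339 ± 23.7 CPM, and these 2 do not differ beyond their spread. EIF2S2, the beta subunit of eIF2, was at 251 ± 17.6 CPM. EIF2B5, the catalytic subunit of eIF2B, was at 118 ± 18.0 CPM. The cap-binding protein itself, EIF4E, lay far below its scaffold EIF4G1 and the helicase EIF4A2, at 42.9 CPM against 170 and 515 CPM. EIF6 had a mean of 27.6 CPM.

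Abundant members varied little. The highest and lowest of the 12 means by construct and day lay 1.14-fold apart for EIF4G2, 1.13-fold for EIF4A2 and 1.13-fold for EIF3E, and ran from 318 to 381 CPM for EIF1 and from 399 to 480 CPM for EIF5A. For EIF3J, a loosely bound eIF3 subunit at 121 ± 17.2 CPM, the same ratio was 1.60, from 94.1 CPM in SFFV/sh-CTRL to 150 CPM in EF1a/sh-XIAP, both at day 10. Against a single level in all samples, the chi-square per degree of freedom of the UMI counts had a median of 1.22 over the 41 members with at least 500 UMIs, 1.12 over the 7103 tested genes with as many and 1.60 over 75 ribosomal protein genes, where 1 is the spread of counting alone. The map of levels by sample shows few runs of colour along a construct or a day.

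**Figure D1:**
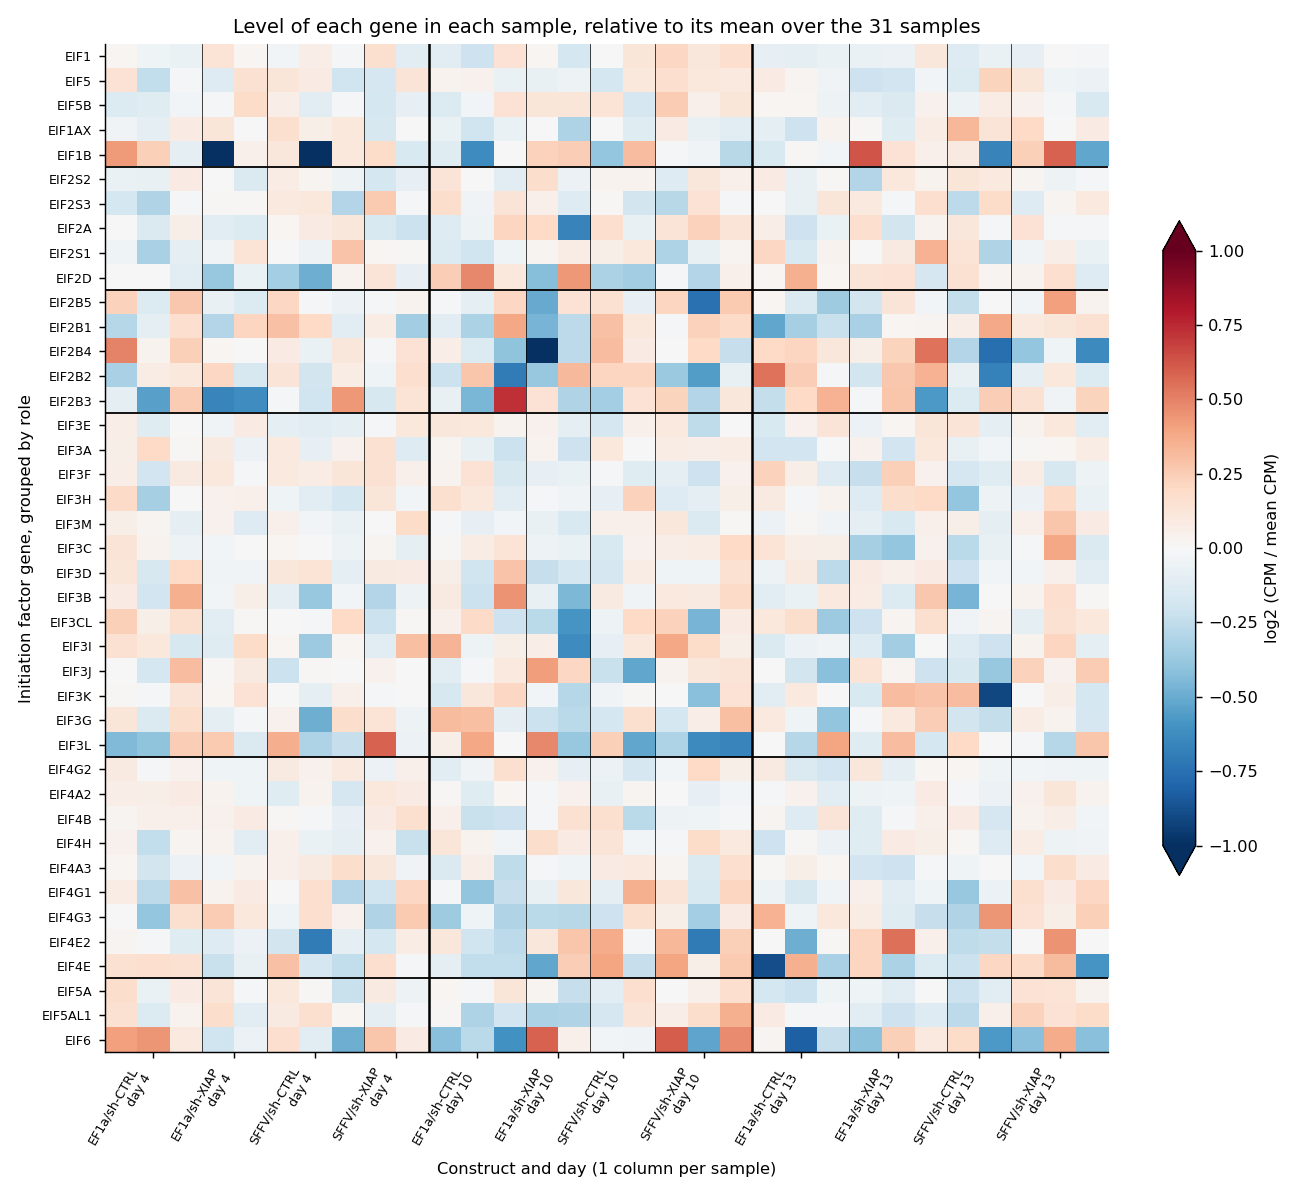
Each row is an initiation factor gene with a mean of at least 20 CPM, grouped by role, and each column 1 of the 31 samples, ordered by day and construct. Colour is log2 of CPM over the gene's mean across all samples, limited at −1 and 1 on the scale. Rows of abundant genes such as EIF4G2 and EIF4A2 stay pale, and deep colours fall on low genes such as EIF1B, EIF2B4 and EIF6.

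Several initiation factors have near-identical copies, and the counting placed their UMIs unevenly. EIF4A1, the other helicase of the cap complex (17:7572706-7579005 on GRCh38), had 74 UMIs over all samples, while 13 of its pseudogenes held 5956 UMIs, or 98.8% of the 6030 of the family. EIF4A1P10 alone held 2004 and EIF4A1P4 1736. Summed over the family, EIF4A1 came to 287 ± 49.6 CPM against 3.53 CPM for the gene itself. Levels listed for EIF4A1 therefore say little about that gene.

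For EIF3L, a subunit of eIF3, 950 UMIs or 65.1% of the family lay on 3 pseudogenes. EIF5A (17:7306999-7312463) held 63.1% of its family, the intronless copy EIF5AL1 (10:79512601-79516440) 4502 UMIs, and pseudogenes 6.47%. EIF3C (16:28688558-28735730) held 5049 UMIs, 58.3% of the pair it forms with EIF3CL (16:28379579-28403879), which held 3611. Pseudogenes of EIF3F, EIF2S2 and EIF4E left 69.9%, 71.0% and 71.2% of the UMIs on the gene. Values of these genes are uncertain to that extent, as the copies can share reads. The order of members by level depends on this too. Summed over its family, EIF5A came to 707 ± 62.9 CPM (SD, n = 31), beside 672 CPM for EIF4G2. EIF3F with its pseudogenes came to 444 ± 40.2 CPM and EIF3C with EIF3CL to 415 ± 37.6 CPM, beside 339 CPM for EIF3E.

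**Figure D2:**
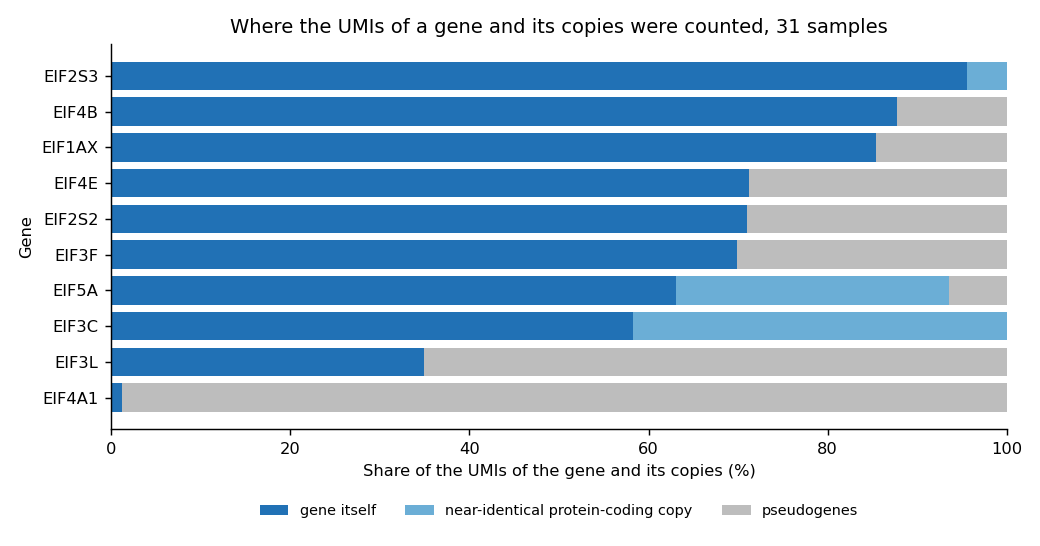
Bars show, for 10 initiation factor genes and their copies over 31 samples, the percentage of UMIs counted on the gene itself, on a near-identical protein-coding copy and on pseudogenes. The share on the gene runs from 95.5% for EIF2S3 down to 1.23% for EIF4A1.

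Strong knockdown at days 10 and 13 was the first question, with 6 samples of SFFV/sh-XIAP against 4 of SFFV/sh-CTRL. None of the 47 initiation factor genes tested passed an adjusted p of 0.25 in limma-voom, the threshold of the study's methods, where 14 of 17683 genes did (0.0792%), and an unadjusted p under 0.05 was reached by 4 members and by 5.58% of all genes. Of the 46 tested members shown, 34 had a log2 fold change above 0 and 12 below, with the 95% interval inside 1.25-fold either way for 22, inside 1.5-fold for 37 and inside 2-fold for 42. Over the 47 tested members the median was 0.05, beside −0.02 over all genes. Members share their libraries and the depth of these, so their directions are not independent. The level of EIF1AY, on the Y chromosome, is not shown.

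By role, 12 of 14 eIF3 genes, 10 of 12 genes for cap binding and the helicase and 5 of 7 for scanning had log2 fold changes above 0 with strong knockdown, against 3 of 6 of eIF2 and 2 of 5 of eIF2B. Their medians were 0.06, 0.06, 0.05, 0.01 and −0.08 on the log2 scale, beside −0.02 over all genes tested. SFFV/sh-CTRL, the reference here, was itself low for eIF3 beside EF1a/sh-CTRL. In that comparison 11 of 14 eIF3 genes lay below 0 and 3 above, with a median of −0.09 beside 0.01 over all genes. The genes for cap binding and the helicase (8 of 12) and for scanning (6 of 7) lay mostly above 0 there, with medians of 0.05 and 0.02. EIF4G2 was at 683 ± 45.9 CPM (SD, n = 6) against 644 ± 34.5 CPM (n = 4), and EIF4A2 at 521 ± 25.0 against 506 ± 16.2 CPM. Both pairs overlap. EIF2S2, at 251 ± 14.5 against 264 ± 8.22 CPM, and EIF3E, with 284 to 363 against 302 to 370 CPM, overlap too.

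EIF3J (ENSG00000104131, 15:44537057-44563029, plus strand) had the smallest p among members. It codes for the eIF3 subunit that sits near the decoding site and helps to release eIF3 and recycle subunits. In SFFV/sh-XIAP it stood at 124, 131 and 132 CPM at day 10 and at 142, 125 and 144 CPM at day 13. In SFFV/sh-CTRL it stood at 104 and 84.6 CPM at day 10 and at 108 and 92.8 CPM at day 13. Every SFFV/sh-XIAP sample lay above every SFFV/sh-CTRL sample, as held for 213 of 17676 genes (1.21%) and for no other member.

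The mean of EIF3J was 133.0 ± 8.54 CPM against 97.3 ± 10.7 CPM, a ratio of 1.37 and a log2 fold change of 0.46 (SE 0.13, 95% interval 0.20 to 0.72). Its p in limma-voom was 0.000926, with a Benjamini-Hochberg adjusted p of 0.384 over all genes, so that it did not pass. In edgeR's quasi-likelihood test on the same counts the adjusted p was 0.130, which passes, and in DESeq2 it was 1. In limma-voom it also passed without SFFV/sh-XIAP day 10 replicate 2, the sample with the fewest UMIs (adjusted p = 0.201), and without EF1a/sh-XIAP day 13 replicate 3 (adjusted p = 0.145), which is in neither group but shares the estimate of spread. A two-sided exact permutation test gave 0.00476, the smallest p that 6 against 4 samples allow. Adjusted over the 6 permutation tests run on members, and not over all members, it was 0.019. All 6 were picked for their small p in these same samples, so permutation p-values here and below give no independent support.

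SFFV/sh-CTRL had the lowest mean of EIF3J among the 4 constructs at these days. Its level was 113 ± 13.6 CPM (n = 6) in EF1a/sh-CTRL and 132 ± 20.8 CPM (n = 5) in EF1a/sh-XIAP, where the samples ran from 105 to 161 CPM and overlapped with the 90.4 to 129 CPM of the control. The log2 fold change with moderate knockdown was 0.17 (95% interval −0.06 to 0.41, adjusted p = 0.992 in limma-voom), and the difference between the strong and the moderate effect was 0.29 (−0.06 to 0.64). At day 4 all constructs overlapped, SFFV/sh-XIAP at 124 and 120 CPM and SFFV/sh-CTRL at 104, 122 and 121 CPM. The 3′ end of EIF3J lies inside SPG11 on the opposite strand, which had 659 UMIs to its 2504. Whether the counting used strand is not given in the sources used here.

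EIF5A carries the amino acid hypusine and eases the passage of ribosomes over stretches such as runs of proline. EIF5A and its copy EIF5AL1 were the next members with strong knockdown. EIF5AL1 was at 224, 243, 274, 252, 238 and 244 CPM in SFFV/sh-XIAP and at 191, 234, 179 and 223 CPM in SFFV/sh-CTRL. A single SFFV/sh-XIAP sample lay under the highest SFFV/sh-CTRL sample. The log2 fold change was 0.23 (SE 0.09, adjusted p = 0.767 in limma-voom). The exact permutation p was 0.00952, for a member picked by its p in the same samples.

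EIF5A was at 475 ± 22.8 CPM (n = 6) against 428 ± 51.0 CPM (n = 4), a log2 fold change of 0.15 (95% interval 0.02 to 0.28), and its groups overlapped, since SFFV/sh-CTRL reached 502 CPM. With the UMIs of EIF5A and EIF5AL1 summed, the log2 fold change was 0.18 (SE 0.06, adjusted p = 0.502 in limma-voom). EIF4A1 with its pseudogenes was at 345 ± 31.5 against 290 ± 27.1 CPM, a log2 fold change of 0.24 (SE 0.11, adjusted p = 0.868). For EIF4E3, a cap-binding protein of the EIF4E family, the fitted value of −1.42 rests on 1 UMI in SFFV/sh-XIAP and 3 in SFFV/sh-CTRL, which gives no fold.

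**Figure D3:**
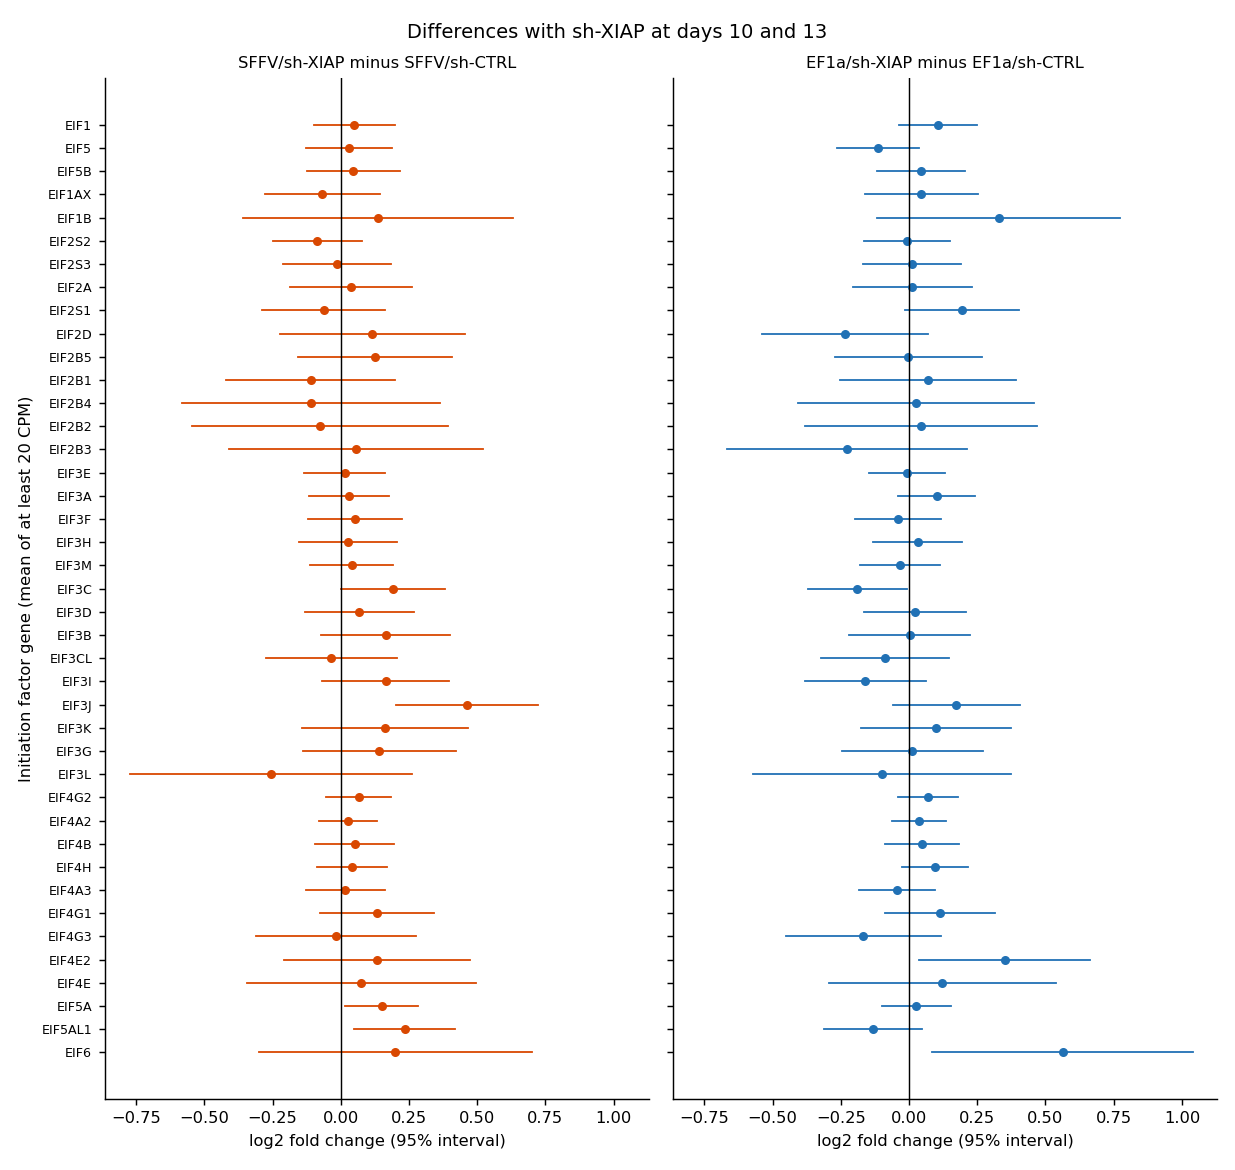
Points are log2 fold changes of initiation factor genes with a mean of at least 20 CPM at days 10 and 13, and lines their 95% intervals in limma-voom, for SFFV/sh-XIAP minus SFFV/sh-CTRL (left) and EF1a/sh-XIAP minus EF1a/sh-CTRL (right). EIF3J lies farthest from 0 on the left at 0.46 and EIF6 on the right at 0.56, and none passed an adjusted p of 0.25.

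Moderate knockdown compared 5 samples of EF1a/sh-XIAP with 6 of EF1a/sh-CTRL at days 10 and 13. No member passed, 3 of 17683 genes did (0.017%), and an unadjusted p under 0.05 was reached by 3 members and by 4.62% of genes. Fold changes were above 0 for 30 of 46 members and below for 16, with 24, 37 and 42 intervals inside 1.25-fold, 1.5-fold and 2-fold. The median log2 fold change of the eIF3 genes was −0.003, with 7 of 14 above 0, and that of the genes for cap binding and the helicase 0.08, with 9 of 12 above 0. Over all genes it was 0.01.

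EIF6 (20:35278911-35284985, minus strand) had the smallest p. It was at 41.5, 28.6, 20.7, 32.6 and 29.6 CPM in EF1a/sh-XIAP, and in EF1a/sh-CTRL at 20.7, 22.9, 18.1, 28.2, 15.7 and 23.5 CPM. The lowest EF1a/sh-XIAP sample fell among the controls. The means, 30.6 ± 7.50 and 21.5 ± 4.39 CPM, gave a log2 fold change of 0.56 (SE 0.24, adjusted p = 0.992 in limma-voom). The exact permutation p was 0.0281, again for a member picked by its p. These samples held 8 to 31 UMIs of EIF6 each, and at day 4 EF1a/sh-CTRL was the higher, at 36.6, 37.5 and 29.5 CPM against 24.0 and 26.5 CPM.

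EIF4E2, the cap-binding protein 4EHP that represses translation, was at 73.7, 82.5, 78.8, 99.6 and 70.6 CPM in EF1a/sh-XIAP and at 48.6 to 73.6 CPM in EF1a/sh-CTRL, with a median of 63.5 CPM. The groups overlapped between 70.6 and 73.6 CPM. The log2 fold change was 0.35 (SE 0.16, adjusted p = 0.992 in limma-voom). The exact permutation p was 0.00866, and this member too was picked by its p. EIF3C had a log2 fold change of −0.19 (SE 0.09), at 219 ± 28.0 against 257 ± 8.53 CPM, and of −0.14 (SE 0.07) with EIF3CL added.

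EIF1B, a close relative of EIF1, was the only member whose groups did not overlap with moderate knockdown, which held for 75 of 17676 genes (0.424%). It is named here after its values were seen. Its EF1a/sh-XIAP samples lay between 30.5 and 45.6 CPM and its EF1a/sh-CTRL samples between 19.1 and 29.8 CPM. The closest values of the 2 groups differ by less than counting error, as these samples held 10 to 32 UMIs, and the log2 fold change was 0.33 (95% interval −0.12 to 0.77).

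The 2 knockdown vectors were also set against each other as the difference of their effects. No member passed and 1 of 17683 genes did (0.00566%), while 3 members and 5.06% of genes reached an unadjusted p under 0.05. EIF3C had a difference of 0.38 (SE 0.13, adjusted p = 0.964 in limma-voom) on the log2 scale, which became 0.24 (SE 0.11) with EIF3CL summed. EIF5AL1 had a difference of 0.37 (SE 0.13), which became 0.20 (SE 0.08) with EIF5A summed. For both, the copy that holds the rest of the family brought the value down.

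**Figure D4:**
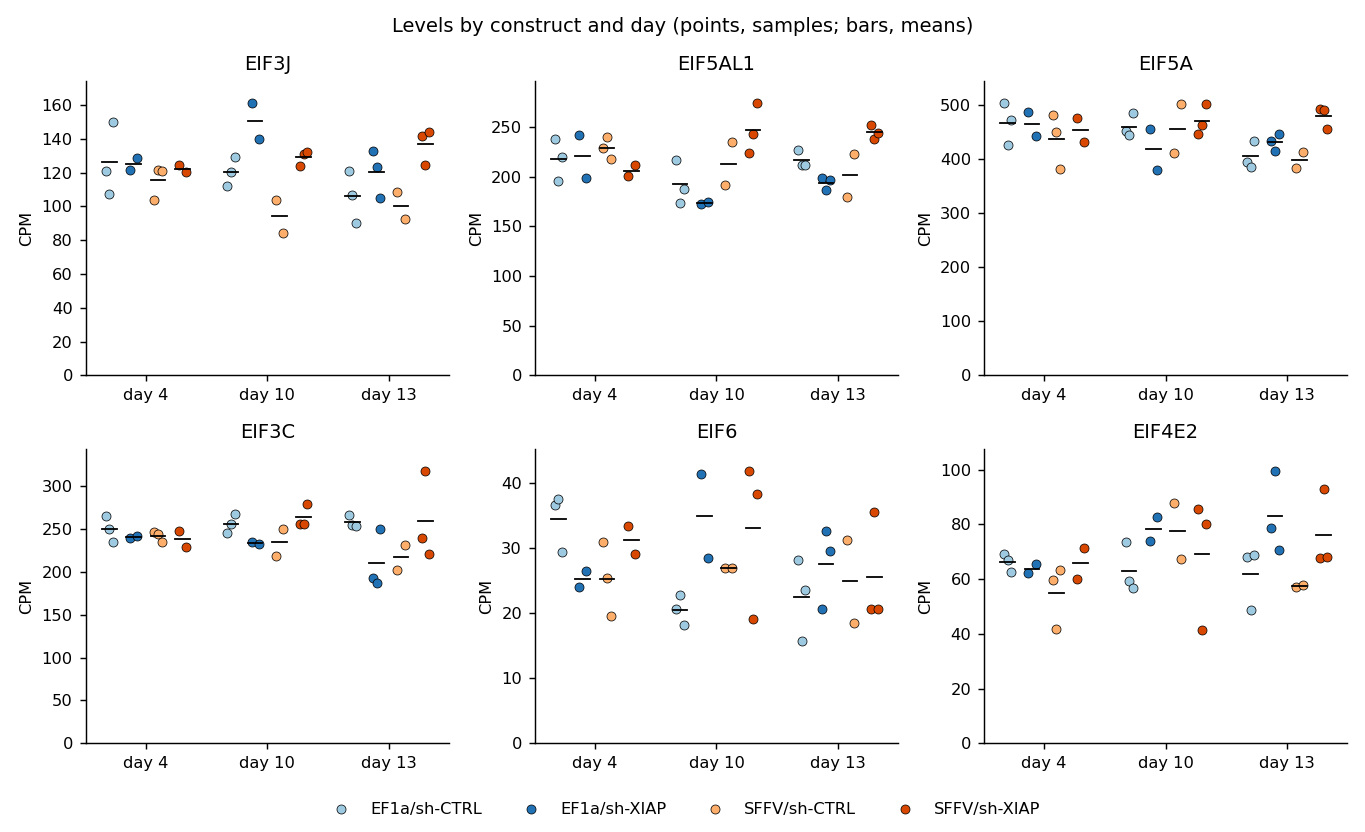
Points are samples and bars means of CPM by construct and day for 6 initiation factor genes, on axes from 0. EIF3J in SFFV/sh-XIAP (124 to 144 CPM) lies above SFFV/sh-CTRL (84.6 to 108 CPM) at days 10 and 13 but not at day 4, and the groups of EIF5AL1, EIF5A, EIF6 and EIF4E2 overlap with either knockdown at days 10 and 13.

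The choice of promoter was compared in the control vectors, 4 samples of SFFV/sh-CTRL against 6 of EF1a/sh-CTRL. Here too no member passed and 1 of 17683 genes did (0.00566%), and EIF2B1 alone among members reached an unadjusted p under 0.05, as did 5.16% of genes. EIF2B1, the regulatory alpha subunit of eIF2B, was at 69.8, 61.5, 59.8 and 74.3 CPM with SFFV and ran from 39.7 to 74.8 CPM with EF1a, so that one EF1a sample lay above them all. The log2 fold change was 0.43 (SE 0.16, adjusted p = 0.922 in limma-voom) and the exact permutation p 0.0619. EIF2D, which can deliver initiator tRNA without eIF2, was at 54.7 ± 9.52 against 68.3 ± 9.07 CPM (exact permutation p 0.0714). No member had groups that did not overlap, against 171 of 17676 genes (0.967%).

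At day 4, before the days used in the study's methods, strong knockdown compared 2 with 3 samples and moderate knockdown 2 with 3, which allows no exact p under 0.1. No member passed in either, where 2 of 18336 genes passed with strong (0.0109%) and 9 with moderate knockdown (0.0491%). At an unadjusted p under 0.05 there were 2 members beside 4.72% of genes with strong and 2 beside 4.5% with moderate knockdown. With so few samples, groups failed to overlap for 8 of 47 members and 19.2% of genes with strong and for 13 of 47 members and 18.7% of genes with moderate knockdown. EIF4A2 was at 553 and 545 CPM in SFFV/sh-XIAP and at 474, 527 and 459 CPM in SFFV/sh-CTRL, and its log2 fold change was 0.18 (SE 0.07, adjusted p = 0.978 in limma-voom). EIF2A, an alternative carrier of initiator tRNA, was at 150 and 143 CPM against 169, 176 and 180 CPM, with a log2 fold change of −0.26 (SE 0.13). Neither pair of groups overlaps, as for many genes at this sample size. At days 10 and 13 the same comparison gave EIF4A2 521 against 506 CPM and EIF2A 179 against 172 CPM, and those groups overlap.

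For moderate knockdown at day 4, EIF1AD had 13 and 20 UMIs in EF1a/sh-XIAP and 9, 4 and 11 in EF1a/sh-CTRL, a log2 fold change of 1.01 (SE 0.38, adjusted p = 0.976 in limma-voom). EIF5B was at 248 and 285 CPM against 228, 231 and 246 CPM, a log2 fold change of 0.20 (SE 0.10). Both genes had all EF1a/sh-XIAP samples above the controls. At days 10 and 13 the groups of both overlapped.

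Between days, all 4 constructs were pooled with construct in the fit, 10 samples at day 4, 10 at day 10 and 11 at day 13. No member passed between day 10 and day 4, where 46 of 17676 genes did (0.26%), between day 13 and day 4, where 90 did (0.509%), or between day 13 and day 10, where 4 did (0.0226%). Unadjusted p-values under 0.05 were reached by 4, 1 and 3 members and by 6.31%, 6.46% and 5.98% of genes. Intervals were narrow, inside 1.5-fold for 42, 44 and 42 of 46 members. The smallest p was that of EIF4B, the TOP mRNA for a cofactor of the helicase, with a log2 fold change of −0.12 from day 4 to day 10 (SE 0.04, adjusted p = 0.563 in limma-voom). Its means were 433 ± 19.7 CPM at day 4, 410 ± 41.9 CPM at day 10 and 420 ± 27.1 CPM at day 13.

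EIF3F, a further TOP mRNA, had means of 323, 299 and 307 CPM in the order of days, a log2 fold change of −0.12 (SE 0.05) from day 4 to day 10. EIF1AX, which binds the decoding site with eIF1, was at 130 ± 9.73 CPM at day 10 and 142 ± 15.2 CPM at day 13 (log2 fold change 0.15, SE 0.06), and EIF4G3, a scaffold of the cap complex, at 73.4 ± 10.1 and 85.4 ± 13.5 CPM (0.20, SE 0.09). EIF4A1 had 34 UMIs in all at day 4, 24 at day 10 and 16 at day 13, which gave a log2 fold change of −0.93 (SE 0.40) from day 4 to day 13. With its pseudogenes added this was −0.07 (SE 0.07). All these day groups overlap.

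The module mean, the average log2 CPM over the 47 tested members, moved by hundredths of a log2 unit. At days 10 and 13 it was 6.80 ± 0.05 (SD, n = 6) in SFFV/sh-XIAP, 6.74 ± 0.04 (n = 4) in SFFV/sh-CTRL, 6.76 ± 0.07 (n = 5) in EF1a/sh-XIAP and 6.75 ± 0.04 (n = 6) in EF1a/sh-CTRL. The differences were 0.07 with strong and 0.01 with moderate knockdown, −0.01 between promoters, −0.05 from day 4 to day 10 and 0.02 from day 10 to day 13. Every pair of groups overlapped. Leaving out 1 sample took the difference with moderate knockdown from −0.01 (without EF1a/sh-XIAP day 13 replicate 3) to 0.03 (without EF1a/sh-XIAP day 10 replicate 2), and that between promoters from −0.03 (without EF1a/sh-CTRL day 10 replicate 2) to 0.004 (without SFFV/sh-CTRL day 13 replicate 2), so that neither has a settled direction. With strong knockdown it ran from 0.05 to 0.08.

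The module mean ran with the depth of the sample, with a Pearson r of 0.815 and a Spearman rho of 0.794 against log2 total UMIs over 31 samples, an r of 0.772 without the 2 samples farthest in depth and of 0.756 within construct and day. Members share their libraries, so this is a description. Depth at days 10 and 13 reached 1148669 UMIs in SFFV/sh-XIAP and 520334 in SFFV/sh-CTRL. With log2 total UMIs as a covariate the median log2 fold change of the members with strong knockdown was 0.02 in place of 0.05. In that fit EIF3J had a log2 fold change of 0.57 and did not pass the threshold on the adjusted p. For single members the tie was weak, with a median r of 0.16 over 41 members and values above 0 for 85.4% of them, against 0.10 and 69.6% for 7793 other genes.

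**Figure D5:**
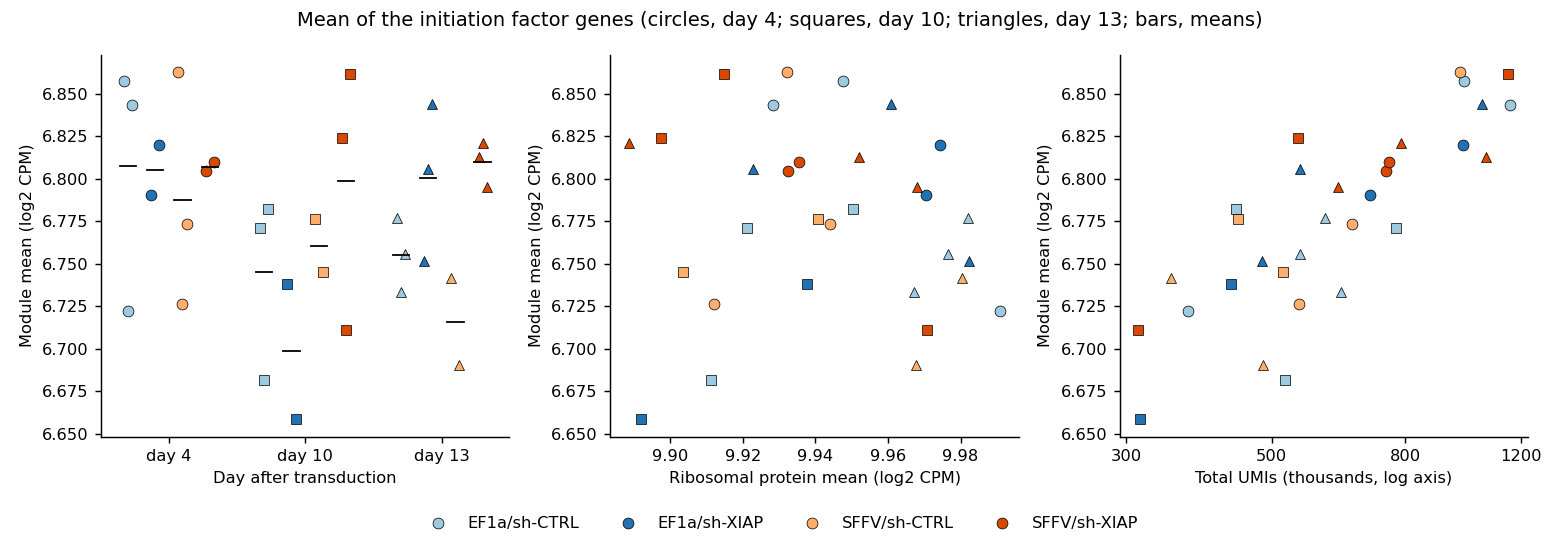
The mean log2 CPM of the tested initiation factor genes is plotted for 31 samples by day with group means as bars (left), against the mean log2 CPM of ribosomal protein genes (middle) and against total UMIs on a log axis (right). Values run from 6.66 to 6.86 and follow total UMIs (r = 0.815). They are weakly related to the ribosomal protein mean (r = −0.09, and −0.23 within construct and day).

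Ribosomal protein genes took 12.4% to 14.3% of all UMIs, and their mean log2 CPM, between 9.89 and 9.99, varied less than the module mean. The module mean was weakly related to it over the 31 samples, with a Pearson r of −0.09, a Spearman rho of −0.17, an r of −0.22 without the 2 samples farthest out and of −0.23 within construct and day. Without TMM scaling between samples the r over all samples was 0.10. With pseudogene UMIs added to the parent genes it was −0.24, the rho −0.37, the r without 2 samples −0.51 and the r within construct and day −0.45. As deposited and with TMM, the r by day was −0.22 (n = 10), 0.01 (n = 10) and −0.53 (n = 11) at days 4, 10 and 13. Against the share of UMIs on ribosomal protein genes, which weights genes by their abundance, r was −0.67 and rho −0.74. Both are parts of the same total, and the relation differed with the measure of ribosomal protein level. The share was also tied to depth. Samples with 312852, 315055 and 351081 UMIs, the fewest, had shares of 14.1%, 13.3% and 14.1%. Those with 1153668, 1148669 and 1063954 UMIs, the most, had 12.6%, 12.4% and 12.7%. The module mean rose with total UMIs (r = 0.815), and the part of depth in the relation was not tested.

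Single members were as loosely tied to the ribosomal protein mean as other genes. Over 41 members with at least 20 CPM r ran from −0.46 to 0.45 with a median of −0.03 and was above 0 for 18, and for 7835 other genes the median was 0.01. The highest were EIF1AX (0.45), EIF4G2 (0.38) and EIF2A (0.33), and the lowest EIF2B5 (−0.46), EIF6 (−0.30) and EIF3H (−0.29). The 7 members known for a TOP tract (EIF2S3, EIF3A, EIF3E, EIF3F, EIF3H, EIF3L and EIF4B) had a median r of 0.18, with 4 above 0, and the other 34 a median of −0.03. EIF3H, with the lowest value of the 7, is itself a TOP mRNA.

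With strong knockdown the 7 TOP members had a median log2 fold change of 0.03 and the other 40 of 0.07, while the 77 tested ribosomal protein genes had −0.02. With moderate knockdown the medians were 0.01, 0.03 and 0.002. Ribosomal protein genes past the threshold numbered 2 with strong knockdown (both lower), 2 with moderate knockdown (1 higher, 1 lower), 5 with moderate knockdown at day 4 (all higher), 5 between day 10 and day 4 (all lower), and 1 or 2 in each other comparison. Of all genes, 0.0792%, 0.017%, 0.0491% and 0.26% passed in those 4 comparisons.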

How the data were processed

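RNA from 31 sorted samples was sequenced by prime-seq, a bulk 3′ protocol with UMIs. Per the labels and the study's methods, the authors mapped the reads and deposited whole-number UMI counts per Ensembl gene, not normalized. The submitters' processing notes name STAR 2.6.0a and the builds GRCh38/hg38 and GRCm38/mm10. The sources used here do not give the annotation or the counting settings. All columns of per-sample counts were used, each matched to its sample by title, and construct and day were taken from the labels.

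Identifiers were matched to GENCODE 29 (29928 of 30667). Genes above 1 CPM in 1 in 3 or more of a fit's samples were tested with limma-voom (limma 3.58.1, edgeR 4.0.16, TMM scaling, R 4.3.3) on construct and day, at days 10 and 13 (21 samples), at day 4 (10 samples) and over all days (31 samples), with Benjamini-Hochberg adjustment over all genes and a threshold of 0.25. EIF5A2, with 3 UMIs, did not pass the low-count filter. A prior count of 2 entered log2 CPM. For 6 members picked by p, exact permutation tests on CPM were added (scipy 1.17.1). edgeR's quasi-likelihood test and DESeq2 1.42.0, other scalings and filters, a block on replicate number and leaving out each sample were the alternatives. The study's methods excluded 5 outlying samples without naming them. The replicate numbers in the labels have gaps, and all 31 samples given here were used. The limma-voom and edgeR fits were tested on simulated data, for 1 comparison in each set of samples. The other alternatives and the permutation tests were not. Replicate pairs differed by 1.07 to 2.42 in chi-square per gene, so no pair held the same counts. Libraries made again from the same RNA would also differ by counting error. This measure therefore cannot tell technical repeats from separate cultures. Intervals on counts cover counting error only.

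One marker of precursor B cells is not reported here. The members and lists were chosen with earlier results of these data known. Named members were those past the threshold, the one with the most UMIs in each role, the 2 with the smallest p in each comparison, and the 3 with the highest and the lowest correlation with the ribosomal protein mean. Further members with an unadjusted p under 0.05 are given where a list's count needs them.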

Additional observations from a re-analysis of the deposited data

Results flagged for a closer look

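A sample far from the others of its construct at days 10 and 13, by Dixon's criterion at 95%, was found in 4 of 100 groups tested (25 measures in 4 constructs). Chance flags about 1 group in 20. EIF1 was at 376 CPM in EF1a/sh-CTRL day 10 replicate 3, where the next sample was at 325 CPM. EIF3E was at 305 CPM in EF1a/sh-CTRL day 13 replicate 1, below the next at 347 CPM. EIF4G3 was at 63.9 CPM in SFFV/sh-XIAP day 10 replicate 2, below the next at 83.9 CPM. EIF1AD was at 34.2 CPM in SFFV/sh-CTRL day 13 replicate 1, above the next at 13.5 CPM, on 12 UMIs.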

How the results depend on the processing

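The count of 0 members past the threshold with strong knockdown became 1, EIF3J, in edgeR's quasi-likelihood test, and ran from 0 to 1 when 1 sample was left out. EIF3J passed without SFFV/sh-XIAP day 10 replicate 2 (adjusted p = 0.201 in limma-voom) and without EF1a/sh-XIAP day 13 replicate 3 (0.145), and its adjusted p ran from 0.13 to 1 over 38 alternatives. With no filter on low counts, 8 members passed between day 10 and day 4 (EIF4B, EIF4A2, EIF5A2, EIF4H, EIF1AX, EIF3F, EIF2B4 and EIF4G3), where 8868 of 29756 genes passed, and the cause was not tested. The relation of the module mean to ribosomal protein level was −0.673 with the share of UMIs in place of the mean, a share that was lower in the deepest samples. Genes called with strong knockdown ran from 0 in DESeq2 to 48 in edgeR and, with 1 sample left out, from 2 to 45, the last without SFFV/sh-XIAP day 10 replicate 2. The 18 differences of named members, picked for their small p, kept their direction in all 669 alternative values, but not their size: EIF6 with moderate knockdown ran from 0.17 to 0.77, EIF2D between promoters from −0.60 to −0.06, and from day 4 to day 13 EIF5A from −0.19 to −0.01 and EIF4A1 from −1.14 to −0.07. Among samples of the same day and different constructs, none with the same replicate number correlated above 0.046 in their deviations. The mean was 0.003 over 40 pairs, and −0.002 over 79 pairs with different numbers, which reached 0.044. The closest sample of another construct on the same day had the same number for 15 of 31 samples. How many would match without pairing was not worked out, so this count does not decide whether the numbers are pairs. Samples of the same construct and number on different days were not compared, and the fits treat them as independent. Whether they share a culture is not stated. The main fit did not use the numbers as pairs. A block on the number left 0 members past the threshold in every comparison. Depth limits members such as EIF6 and EIF1AD, with few UMIs a sample, and the copies limit EIF4A1, EIF3L, EIF5A and EIF3C.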

Other observations

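Other genes of the translation pathway were followed beside the initiation factors. Of 13 regulators (the eIF2 kinases, the binding proteins of EIF4E, mTOR and its kinases, MKNK1, MKNK2 and PDCD4) 12 were tested, with all 9 partners, 6 of 7 elongation factors and 2 of 2 termination factors. None passed an adjusted p of 0.25 in limma-voom in any of the 9 comparisons. The genes named below were picked from these for a small unadjusted p. DHPS, the enzyme that begins the hypusine modification of eIF5A, was at 24.0 ± 6.96 CPM (SD, n = 6) in SFFV/sh-XIAP and at 39.3 ± 11.1 CPM (n = 4) in SFFV/sh-CTRL at days 10 and 13, and its samples overlapped. The log2 fold change was −0.74 (SE 0.24, adjusted p = 0.598 in limma-voom). With moderate knockdown DHPS was at 33.4 ± 8.95 against 37.5 ± 8.17 CPM. At day 4 its log2 fold change was 0.07 (SE 0.32) with strong and −0.60 (SE 0.30) with moderate knockdown. From day 4 to day 13 it was 0.44 (SE 0.16).

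PDCD4, an inhibitor of the helicase eIF4A, was at 121 ± 15.2 CPM (n = 5) in EF1a/sh-XIAP and 103 ± 13.7 CPM (n = 6) in EF1a/sh-CTRL, with a log2 fold change of 0.27 (SE 0.12, adjusted p = 0.992 in limma-voom). EEF2, the translocase of elongation and a TOP mRNA, had a log2 fold change of 0.06 from day 10 to day 13 (SE 0.01) with an adjusted p of 0.267 in limma-voom, just short of the threshold. Its mean over all samples was 2272 ± 82.3 CPM (n = 31).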
